A study of Mus musculus with 12 samples.

Results

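Conventional CD4 T cells were taken from droplet single-cell RNA sequencing of the stromal vascular fraction (SVF) of mouse white adipose tissue, the cells that remain after collagenase digestion once the floating adipocytes are removed. A cell entered the set by its own transcripts: at least 1 UMI (unique molecular identifier, an RNA molecule counted once) of Cd3d, Cd3e or Cd3g, at least 1 UMI of Cd4, and no UMI of Foxp3, Cd8a, Cd8b1, Adgre1 or Cd79a. The absent genes mark regulatory T cells, CD8 T cells, macrophages and B cells. The rule found 597 cells among the 126095 kept by the filters of the study, which ask for 700 to 22000 UMIs and 200 to 6000 genes in a cell and a mitochondrial share under 25%. Since the rule reads these transcripts, their levels describe the set and were not tested.

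The 12 libraries came from epididymal (eWAT) and inguinal (iWAT) white adipose tissue of male mice aged 12 weeks. In each depot 2 libraries were labelled WT-Veh (C57BL/6J, given methylcellulose vehicle), 2 ob/ob-Veh (Lepob/Lepob mice on the same vehicle) and 2 ob/ob-Rosi (Lepob/Lepob mice given rosiglitazone, Rosi, at 30 mg/kg). Each was dosed by mouth every morning and evening, over 3 days. The titles call the 2 libraries of a group biological replicates, and the tissue was small biopsies from several places in a depot. The Lepob allele acts in the whole body and still gives a transcript, so the 4 to 277 Lep UMIs of a library, none of them in a CD4 T cell, give no check of the labels. Groups are called by their labels throughout.

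CD4 T cells recognise peptides held on MHC class II molecules through the T cell receptor, which signals through the CD3 chains with CD4 as co-receptor. Naive cells circulate through lymph nodes guided by Ccr7, and activated cells lose it, take up residence in tissues and direct other cells through cytokines and CD40 ligand. Th1 cells make interferon gamma, Th2 cells make Il4, Il5 and Il13, and Th17 cells make Il17a. In adipose tissue they lie among macrophages, and the balance of Th1 cells with regulatory and Th2 cells is known to differ between lean and obese fat. Rosi is a ligand of PPARγ, a nuclear receptor encoded by Pparg that is best known in adipocytes.

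The libraries held 20132553 to 92475986 UMIs, and the summed CD4 T cells of a library 1031 to 444826. A share of cells or a level in CPM, the UMIs of a gene scaled to a common total of UMIs, thus has a counting error that differs widely between libraries, and the intervals below cover that error alone. A level that rests on no more than 3 UMIs is 113 CPM or less in eWAT WT-Veh replicate 1, 22.8 in replicate 2, 21.6 and 24.4 in eWAT ob/ob-Veh, 158 and 69.7 in eWAT ob/ob-Rosi, 6.74 and 9.22 in iWAT WT-Veh, 309 in iWAT ob/ob-Veh replicate 2, and 24.5 and 28.5 in iWAT ob/ob-Rosi. No CD4 T cell shared its barcode with a CD4 T cell of another library, over 66 pairs of libraries.

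The library labelled iWAT WT-Veh replicate 1 stood apart and held 271 of the 597 cells. A UMI of the T cell receptor constant regions (Trac, Trbc1 or Trbc2) was in 73.4% of its CD4 T cells, but also in 37.8% of its macrophages and 34.9% of its B cells, at median depths of 1758 and 1119 UMIs. In the other libraries these UMIs were in at most 5.6% of macrophages and 7.3% of B cells. B cells made up 7.47% of its kept cells, against 0.20% to 1.27% elsewhere, and Scrublet, which scores droplets against simulated mixtures, marked 39 of its 271 CD4 T cells and 24.5% of all its cells. Elsewhere it marked at most 5.18% of all cells, and 1 of 12 was the highest share of CD4 T cells. The labels do not say whether its tissue held a lymph node, and this was not tested. Values without it are given beside the shares and the naive genes.

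The label was checked on genes that the rule did not use. Trac, the constant region of the receptor alpha chain, was not read in the 1 cell of iWAT ob/ob-Veh replicate 1 and stood at 189 to 927 CPM in the other 11 libraries. Over the 15 genes of the receptor and its signalling that are not in the rule, CD4 T cells summed to 1940 to 6901 CPM per library, against 77.9 to 825 in the cells with no CD3 UMI. The share of CD4 T cells with a receptor constant-region UMI was 70.6% and 91.5% in eWAT WT-Veh, 87.9% and 95.5% in eWAT ob/ob-Veh, 66.7% and 93.8% in eWAT ob/ob-Rosi, 98.8% in iWAT WT-Veh replicate 2, 6 of 8 cells in iWAT ob/ob-Veh replicate 2, and 78.7% and 89.7% in iWAT ob/ob-Rosi. Apart from iWAT WT-Veh replicate 1, then, most cells of a library with several members carried receptor RNA that its macrophages nearly lacked. Trdc, a gamma-delta receptor gene, was found in 0% to 2.6% of the cells.

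Cd4 itself (chromosome 6, 124864692 to 124888221, GRCm38) was thinly read: 461 of the 597 cells held 1 UMI of it and 136 held more. A Cd4 UMI was also present in 0.3% to 3.7% of macrophages. Cells just inside the rule, with 1 Cd4 UMI, held a constant-region UMI in 79.6% of cases at a median of 1541 UMIs, and those with more Cd4 in 89.0% at a median of 2048.5 UMIs. The 6080 CD3-positive cells just outside it, with neither Cd4 nor Cd8 UMIs, held one in 54.5% at a median of 1306 UMIs. Without iWAT WT-Veh replicate 1 these shares were 86.4%, 94.4% and 63.8%. A CD4 T cell whose Cd4 went unread falls outside the rule. When every cell was first thinned to 700 UMIs, 120 cells were found in iWAT WT-Veh replicate 1 and 1 to 30 in the other libraries.

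RNA of other cell types was present in these droplets. A UMI of Lyz2, C1qa or C1qb, macrophage genes, was in 63.6% to 100% of the CD4 T cells of a library, and 1 of the collagen or decorin genes of stromal cells in 52.4% to 100%. Over the 12 macrophage markers outside the rule the summed level was 2677 to 8729 CPM in CD4 T cells against 7422 to 38183 in the cells without CD3, and over 9 stromal markers 1669 to 10669 against 8688 to 43810. The share these transcripts have in each result below was not tested beyond the values given beside it. They set the scale for any gene that macrophages or stromal cells express highly.

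MHC class II RNA, which antigen-presenting cells make, was read in many CD4 T cells, with H2-Aa in 140 of the 271 of iWAT WT-Veh replicate 1 and 18 of the 22 of eWAT ob/ob-Veh replicate 2, but a heavy load of it in few. At least 30 UMIs of these genes were found in 2 and 3 cells of eWAT WT-Veh, 6 and 7 of eWAT ob/ob-Veh, none of eWAT ob/ob-Rosi, 2 and 16 of iWAT WT-Veh, none of iWAT ob/ob-Veh, and 2 and 7 of iWAT ob/ob-Rosi. These cells were deep: in eWAT ob/ob-Veh their median was 10121 and 9842 UMIs, against 2555 and 3353 for the rest, and in iWAT WT-Veh replicate 2 it was 9277.5 against 2070. All 6, 7 and 16 of them in those 3 libraries held a receptor constant-region UMI as well. Values without these cells, an alternative chosen after the data had been seen, are given where they matter.

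CD4 T cells were scarce in every library but 1. They made up 0.116% (95% Clopper-Pearson interval 0.0673 to 0.185) and 0.726% (0.534 to 0.965) of kept cells in eWAT WT-Veh, 0.360% (0.248 to 0.505) and 0.284% (0.178 to 0.429) in eWAT ob/ob-Veh, and 0.127% (0.0657 to 0.222) and 0.159% (0.0909 to 0.258) in eWAT ob/ob-Rosi. The iWAT shares were 1.59% (1.41 to 1.79) and 0.854% (0.682 to 1.06) in WT-Veh, 0.0139% (0.000351 to 0.0773) and 0.111% (0.0480 to 0.219) in ob/ob-Veh, and 0.486% (0.357 to 0.646) and 0.223% (0.159 to 0.305) in ob/ob-Rosi. The iWAT groups did not overlap and ran from ob/ob-Veh through ob/ob-Rosi to WT-Veh, whereas in eWAT the WT-Veh libraries enclosed all others. The numbers of cells in the same order were 17, 47, 33, 22, 12 and 16 in eWAT and 271, 84, 1, 8, 47 and 39 in iWAT.

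The mean share was 0.192% in ob/ob-Veh and 0.821% in WT-Veh over both depots, and the ob/ob-Veh mean was the lower in 2 of 2 depots. The difference did not pass the test (exact permutation test within depots, two-sided, p = 0.167, adjusted p = 0.952 over 8 tests, smallest p possible 0.0556). The share averaged 0.249% in ob/ob-Rosi, a difference from ob/ob-Veh of 0.0565 percentage points (exact permutation p = 0.722, adjusted p = 0.952). With 1 library left out that difference ranged from −0.00927, without iWAT ob/ob-Rosi replicate 1, to 0.122, without its replicate 2. It averaged 0.546% in iWAT and 0.295% in eWAT (exact permutation p = 0.324, adjusted p = 0.952, smallest p possible 0.00926). Without iWAT WT-Veh replicate 1 the difference between depots went from 0.251 to 0.128 percentage points and that of ob/ob-Veh from WT-Veh from −0.629 to −0.445. Within a depot, 2 libraries against 2 cannot go below an exact p of 0.333.

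The share of cells with a CD3 UMI also varied, and its part in this spread was not tested. In iWAT WT-Veh replicate 1, where receptor RNA was also read in macrophages, 3580 of 4592 such cells lacked Cd4 and Cd8 UMIs. Cells with a CD3 UMI made up 26.9% and 9.3% of kept cells in iWAT WT-Veh and 0.72% to 6.2% in the other 10 libraries. Of these cells, CD4 T cells were 7.62% and 11.7% in eWAT WT-Veh, 11.8% and 9.57% in eWAT ob/ob-Veh and 6.25% and 6.06% in eWAT ob/ob-Rosi. In iWAT they were 5.90% and 9.17%, 1.92% and 4.82%, and 13.5% and 6.58%. None of the 3 comparisons of this share passed (exact permutation p of 0.417, 0.50 and 0.833, adjusted p of 0.952 each). In eWAT the ob/ob-Rosi libraries lay below the other 4 in these unthinned shares. This no longer held after thinning, with ob/ob-Rosi at 5.52% and 3.83%, ob/ob-Veh at 5.59% and 2.27% and WT-Veh at 4.97% and 7.94%. With 2 or more CD3 UMIs required, eWAT ob/ob-Rosi replicate 1 (11.8%) was above WT-Veh replicate 1 (10.9%) alone. Scaled to CD8 T cells, chosen by the same CD3, Adgre1 and Cd79a limits with a Cd8a or Cd8b1 UMI, no Cd4 and no limit on Foxp3, there were 0.81 and 0.39 CD4 T cells per CD8 T cell in eWAT WT-Veh, 0.94 and 0.96 in eWAT ob/ob-Veh, 0.57 and 0.25 in eWAT ob/ob-Rosi, 0.39 and 0.34 in iWAT WT-Veh and 0.78 and 0.74 in iWAT ob/ob-Rosi. Fewer CD4 than CD8 T cells were detected in all 12 libraries, with Cd4 thinly read and 2 genes to find a CD8 T cell by. In eWAT the unthinned ob/ob-Veh ratios stood above those of both other groups. Cells with a CD3 UMI were also deeper in eWAT ob/ob-Veh, at medians of 2896 and 3489.5 UMIs. Their medians were 1199 and 2289 in eWAT WT-Veh and 1102.5 and 2169 in eWAT ob/ob-Rosi. The ratios were not tested at equal depth.

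**Figure D1:**
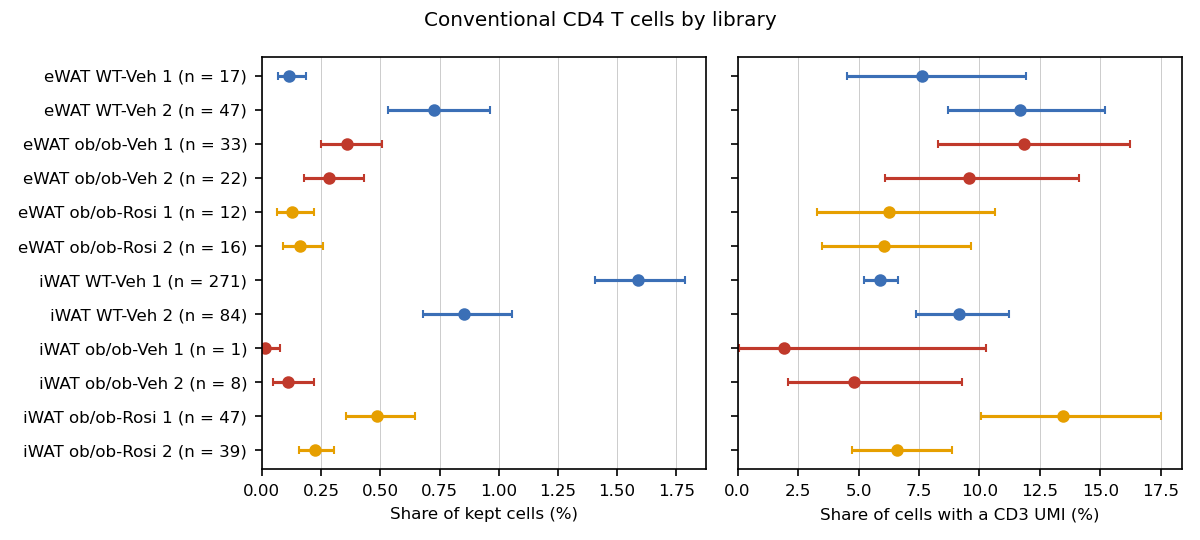
CD4 T cells in each of the 12 libraries as a percent of kept cells and as a percent of cells with a CD3 UMI, with 95% Clopper-Pearson intervals as bars. The share of kept cells runs from 0.0139% in iWAT ob/ob-Veh replicate 1 to 1.59% in iWAT WT-Veh replicate 1. In these unthinned shares of kept cells the iWAT groups do not overlap while the eWAT groups do. After thinning, iWAT ob/ob-Veh and ob/ob-Rosi overlap.

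Naive and effector markers that the rule did not use were read in cells thinned to 700 UMIs so that depth was equal. At least 1 UMI of Ccr7 or Lef1, a transcription factor of naive T cells, was found in 11.8% and 12.8% of CD4 T cells in eWAT WT-Veh, 15.2% and 13.6% in eWAT ob/ob-Veh and 8.3% and 6.2% in eWAT ob/ob-Rosi. In iWAT the shares were 43.9% and 11.9% in WT-Veh, 2 of 8 cells in ob/ob-Veh replicate 2, and 19.1% and 5.1% in ob/ob-Rosi. Before thinning they were 23.5%, 31.9%, 45.5%, 22.7%, 16.7% and 37.5% in eWAT, and 62.4%, 25%, 50%, 29.8% and 12.8% in the iWAT libraries with more than 1 cell. Macrophages held these markers in 0.0495% to 0.603% of cells after thinning, so the low shares of most libraries were still above them. The exception was iWAT WT-Veh replicate 1, where 11.4% of macrophages held them.

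Cells of naive character were thus concentrated in 1 library. In iWAT WT-Veh replicate 1 Satb1, a chromatin organiser high in naive T cells, stood at 1356 CPM and Ccr7 at 515, against 114 and 86.1 CPM in replicate 2 of the same group. Satb1 was also high in the 8 cells of iWAT ob/ob-Veh replicate 2, at 1133 CPM, where 3 UMIs are worth 309 CPM, and at or below 260 CPM in the other libraries with more than 1 cell. The mean naive share of the WT-Veh libraries with 20 or more cells was 27.9% in iWAT and 12.8% in eWAT, an excess of 15.1 percentage points (exact permutation p = 1, smallest p possible 0.333). Without iWAT WT-Veh replicate 1 that difference turned to −0.861 points. In eWAT, ob/ob-Veh exceeded WT-Veh replicate 2 by 1.63 points (exact permutation p = 0.667, smallest p possible 0.333).

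Effector markers were found least often in that same library. At least 1 UMI of Ccl5, Nkg7 or Cxcr3, a chemokine, a protein of cytotoxic granules and a chemokine receptor of Th1 cells, was found after thinning in 23.5% and 48.9% of cells in eWAT WT-Veh, 27.3% and 13.6% in eWAT ob/ob-Veh and 58.3% and 50% in eWAT ob/ob-Rosi. The iWAT shares were 8.9% and 46.4% in WT-Veh, 1 of 8 cells in ob/ob-Veh replicate 2 and 55.3% and 35.9% in ob/ob-Rosi. Macrophages held them in 0.7% to 4.5% of cells, and in 9.0% in iWAT WT-Veh replicate 1, where the CD4 T cells were therefore at the level of the background. In every library with 20 or more cells except that and eWAT ob/ob-Veh replicate 2, where both were at 13.6%, effector markers were found more often than naive ones.

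Few thinned cells were read with both kinds. Markers read this sparsely seldom meet in a cell by chance, and the number to be expected was not worked out. The counts thus cannot tell whether naive and effector cells were separate. In iWAT WT-Veh replicate 1, 111 of 271 thinned cells had naive markers alone, 16 had effector markers alone and 8 had both, while in replicate 2 the numbers were 8, 37 and 2 of 84. Over the other 9 libraries with 5 or more cells, 0 to 4 cells per library had both. Neither set was read in 4 to 23 cells of each of these 9 libraries and in 136 and 37 of iWAT WT-Veh, which at this depth does not show that those cells lacked both.

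**Figure D2:**
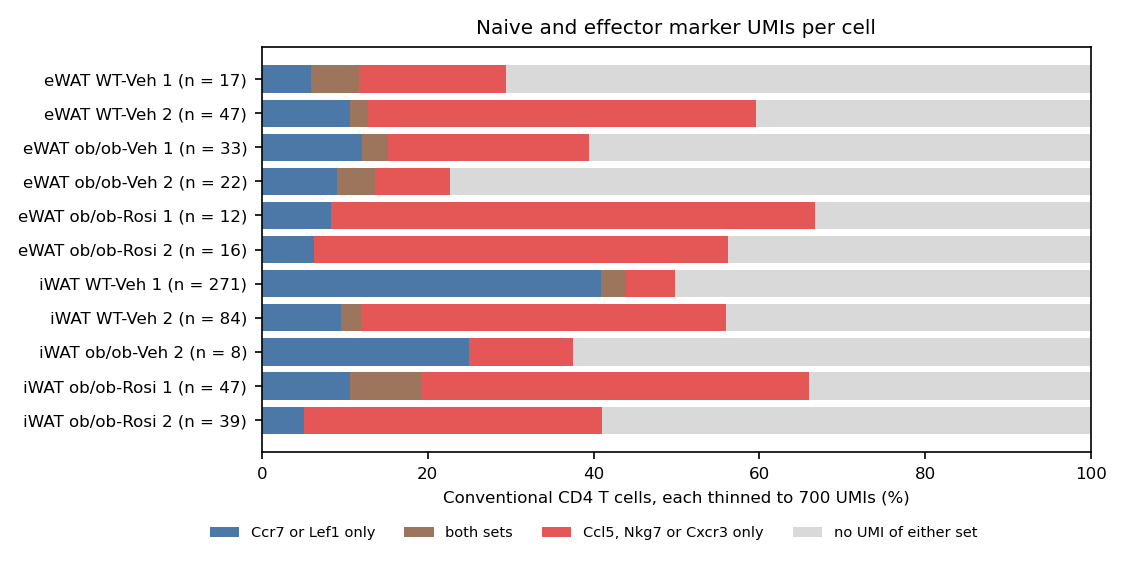
CD4 T cells of the 11 libraries with 5 or more members, thinned to 700 UMIs, split by whether a cell held a UMI of the naive markers (Ccr7, Lef1), the effector markers (Ccl5, Nkg7, Cxcr3), both or neither, as stacked percent of cells. Naive markers alone make up the largest marked class in iWAT WT-Veh replicate 1 (111 of 271 cells), and effector markers alone in both ob/ob-Rosi groups.

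Ccl5 (chromosome 11, 83525778 to 83530518, GRCm38, minus strand) made up most of the effector signal. Its level was 1211 and 1699 CPM in eWAT WT-Veh, 411 and 122 in eWAT ob/ob-Veh and 1996 and 1789 in eWAT ob/ob-Rosi, so that the ob/ob-Veh libraries were the low ones of that depot. In iWAT it was 80.9 and 2336 CPM in WT-Veh and 6734 and 987 in ob/ob-Rosi, and no UMI was read in ob/ob-Veh. A single cell held 269 of the 824 Ccl5 UMIs of iWAT ob/ob-Rosi replicate 1. Nkg7 followed the same order in eWAT, at 265 and 531, 101 and 56.8, and 893 and 395 CPM.

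Activation markers were widespread. Icos, Ctla4 and Tnfrsf18 are a costimulatory receptor, an inhibitory receptor and a member of the TNF receptor family that T cells raise after activation. At least 1 UMI of the 3 was found after thinning in 23.5% and 42.6% of cells in eWAT WT-Veh, 42.4% and 22.7% in eWAT ob/ob-Veh, 50% and 68.8% in eWAT ob/ob-Rosi, 29.2% and 46.4% in iWAT WT-Veh, 2 of 8 cells in iWAT ob/ob-Veh replicate 2, and 27.7% and 38.5% in iWAT ob/ob-Rosi. Before thinning the shares were 29.4% to 81.8% over these 11 libraries. CD8 T cells held the markers in 5.9% to 24.2% of thinned cells in these libraries and macrophages in 0.15% to 0.91%, except 5.3% in iWAT WT-Veh replicate 1. The share in CD4 T cells was above that in CD8 T cells of the same library in each of the 11.

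Pdcd1, the inhibitory receptor PD-1, was at 189 and 167 CPM in eWAT WT-Veh, 43.3 and 48.7 in eWAT ob/ob-Veh and 0 and 46.5 in eWAT ob/ob-Rosi, and at 6.74 and 73.8, and 114 and 9.49, in iWAT WT-Veh and ob/ob-Rosi. The 2 eWAT WT-Veh libraries were the high ones of that depot, and in iWAT the replicates of a group lay far apart.

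CD40 ligand, by which helper T cells act on B cells and macrophages, was read in CD4 T cells and hardly in other cells. After thinning, Cd40lg was found in 11.8% and 2.1% of cells in eWAT WT-Veh, 6.1% and 13.6% in eWAT ob/ob-Veh, 5.5% and 2.4% in iWAT WT-Veh and 8.5% and 5.1% in iWAT ob/ob-Rosi. In eWAT ob/ob-Rosi it was in 0 of 12 and 0 of 16 thinned cells, which allows shares of cells with a UMI of up to 25% and 18.8%, and in 1 of the 12 before thinning. Before thinning the shares were 0% to 27.3%, at most 0.85% in macrophages, and 0% in the CD8 T cells of all 6 eWAT libraries.

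Th1 genes were read in a minority of cells. Tbx21 or Ifng, the master regulator and the cytokine of Th1 cells, was found after thinning in 5.9% and 4.3% of cells in eWAT WT-Veh, 6.1% and 0% in eWAT ob/ob-Veh, 8.3% and 12.5% in eWAT ob/ob-Rosi, 1.1% and 9.5% in iWAT WT-Veh and 14.9% and 0% in iWAT ob/ob-Rosi. Before thinning the shares in these 10 libraries ran from 1.8% in iWAT WT-Veh replicate 1 to 28.6% in its replicate 2, against at most 0.93% in macrophages. Ifng itself was at 75.7 and 53.1, 159 and 81.2, and 52.5 and 46.5 CPM in eWAT, with 15 of the 22 UMIs of eWAT ob/ob-Veh replicate 1 in 1 cell.

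Th2 transcripts were read in 4 libraries. Il4, Il5 or Il13 was found in 1 of 17 cells of eWAT WT-Veh replicate 1, 5 of 22 of eWAT ob/ob-Veh replicate 2, 2 of 84 of iWAT WT-Veh replicate 2 and 2 of 39 of iWAT ob/ob-Rosi replicate 2, in no cell of the other 8 libraries and in no CD8 T cell. In macrophages the share was at most 1.53%. In eWAT ob/ob-Veh replicate 2, Il5 stood at 276 CPM, but 32 of its 34 UMIs came from 1 cell and all 9 Il13 UMIs from 2. That library also led in Gata3, the regulator of Th2 cells, at 341 CPM, and in Il1rl1, the interleukin 33 receptor, at 382 CPM, against 195 and 115 in the other eWAT ob/ob-Veh library. Il1rl1 was also listed as a marker of regulatory T cells, and Gata3 and Il1rl1 as markers of innate lymphoid cells. Which of these kinds the cells were was not tested. Gata3 was at 75.7 and 60.7 CPM in eWAT WT-Veh and 52.5 and 116 in eWAT ob/ob-Rosi, and at 47.2 and 98.4, and 65.4 and 218, in iWAT WT-Veh and ob/ob-Rosi. Il1rl1 or Gata3 was found in 11.8% and 14.9%, 39.4% and 72.7%, and 8.3% and 18.8% of eWAT cells before thinning, and in 11.8% and 4.3%, 6.1% and 27.3%, and 8.3% and 12.5% after it, while 1.9% to 23.4% of macrophages held one before thinning. Only replicate 2 of eWAT ob/ob-Veh thus stayed above the other eWAT libraries at equal depth.

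Areg, the growth factor amphiregulin that tissue T cells and innate lymphoid cells release, was at 151 and 15.2 CPM in eWAT WT-Veh, 209 and 211 in eWAT ob/ob-Veh, 0 and 116 in eWAT ob/ob-Rosi, 56.2 and 36.9 in iWAT WT-Veh and 16.3 and 437 in iWAT ob/ob-Rosi. The highest level was in a single iWAT ob/ob-Rosi library. After thinning, Areg was in 0% to 12.8% of CD4 T cells and in 0.34% to 1.86% of macrophages. Il10, which macrophages also make, was in 0% to 12.5% of CD4 T cells before thinning, 0% to 5.88% of CD8 T cells and 3.27% to 13.4% of macrophages. Of the 24 Il10 UMIs of iWAT WT-Veh replicate 2, 22 came from 1 cell with fewer than 30 MHC class II UMIs, and in each iWAT ob/ob-Rosi library 1 cell held 6. Cxcr5, Bcl6 or Il21, genes of follicular helper cells, were in 0% to 18.2% of CD4 T cells, 0% to 20% of CD8 T cells and 6.9% to 28.3% of macrophages. Bcl6 had a median of 30.3 CPM in CD4 T cells and 12.9 in CD8 T cells over 7 libraries, and was higher in CD4 T cells in 6 of them. Il17a, Il17f and Il22, cytokines of Th17 cells, were not read in a CD4 T cell of any library, which at this depth limits the share of cells with a UMI, not of cells that express them, to 1.11% in iWAT WT-Veh replicate 1 and to 3.57% to 37.5% in the other libraries with 5 or more cells.

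**Figure D3:**
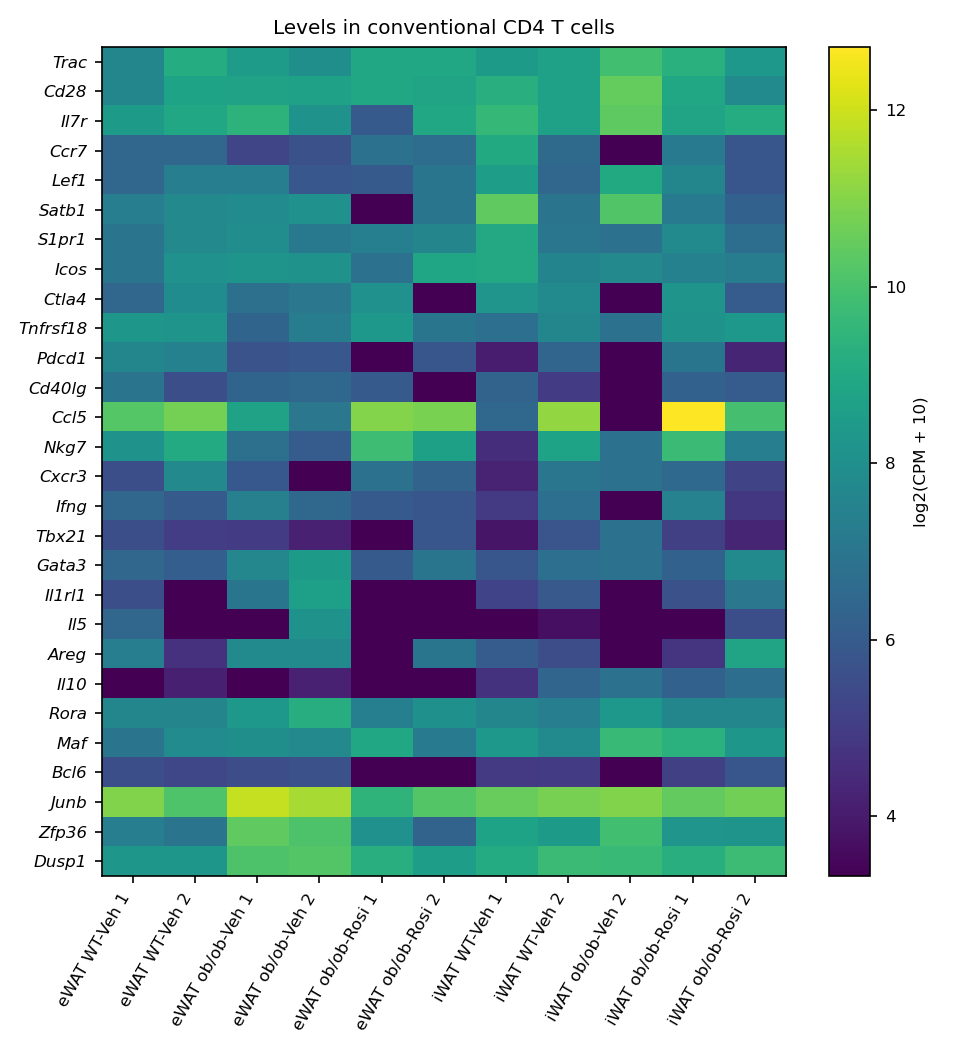
Heat map of log2(CPM + 10) for 28 genes of naive, activation, Th1, Th2 and other programmes in the CD4 T cells of 11 libraries, 1 column per library. Satb1 and Ccr7 are bright in iWAT WT-Veh replicate 1, Ccl5 is lowest in that library, eWAT ob/ob-Veh and iWAT ob/ob-Veh replicate 2, and Il5 is highest in eWAT ob/ob-Veh replicate 2.

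The comparison with CD8 T cells of the same libraries asked what set the CD4 T cells apart from their nearest relatives. It had the most cells of all comparisons: the 2 classes were compared within each of the 7 libraries with 20 or more cells of both, over 1985 genes, leaving out the genes of the rule. CD4 T cells were higher in 28 genes and lower in 11 (edgeR quasi-likelihood test, adjusted p of 0.05 or less and a change of at least 1.1-fold), that is 1.96% of the genes tested, 1.41% higher and 0.554% lower. The median over all genes was 0.0049 on the log2 scale. The genes that fell included Nkg7, Ctsw and Ccl5 of cytotoxic cells, and those that rose included the receptors Ctla4 and Icos, Rel and Nfkbiz of the NF-κB pathway, and MHC class II genes. Without the cells of 30 or more MHC class II UMIs 53 of 1552 genes were called in the same 7 libraries, 27 of them among the 39. Where a library was also dropped for having under 20 cells left, eWAT ob/ob-Veh replicate 2, 27 were called, against 28 without that library alone.

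Ly6c2, a surface protein of effector and memory CD8 T cells (chromosome 15, 75108158 to 75111970, GRCm38, minus strand), was at 60.7 to 180 CPM in CD4 T cells (median 144) and 230 to 732 in CD8 T cells (median 633), with no overlap of the ranges (log2 fold change −2.08, SE 0.13, edgeR adjusted p = 2.85e-07). Ctsw, cathepsin W of cytotoxic granules, was at 16.2 to 75.9 CPM against 74.0 to 228 (−2.0, SE 0.22, edgeR adjusted p = 0.000177). Ccl5 was at 80.9 to 6734 CPM (median 987) against 239 to 15935 (median 5403) and was lower in 6 of 7 libraries (−2.36, SE 0.34, edgeR adjusted p = 0.00327). Nkg7 was lower in 6 of 7 libraries by 1.84 on the log2 scale (SE 0.28, edgeR adjusted p = 0.00387), and Klrd1, an NK cell receptor, by 1.59. Runx3, the transcription factor that represses Cd4 in CD8 T cells, was at 49 to 104 CPM against 120 to 231, again without overlap (−1.08, SE 0.18, edgeR adjusted p = 0.00663). Of the CD8 T and NK cell list, 3 of the 4 genes tested fell, with a median of −1.71. Of the Th1 and cytotoxic list 2 of 8 fell and none was above 0, with a median of −0.47. Selplg, a selectin ligand, Ugcg, an enzyme of glycolipid synthesis, Gramd3 and Ms4a4b also fell, by 0.54, 0.81, 0.80 and 0.78. Without the cells of 30 or more MHC class II UMIs in the same libraries Ugcg was at −0.62 (edgeR adjusted p = 0.0681) and not called, and over all alternatives its call was lost in 10 of 15 and that of Ms4a4b in 8 of 16.

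Of the activated and memory T cell list 2 of 16 genes rose, Icos and Tnfrsf18, 12 were above 0 and the median was 0.14. Ctla4, of the list of inhibitory receptors, (chromosome 1, 60887000 to 60915832, GRCm38, plus strand) was at 57 to 288 CPM (median 209) in CD4 T cells and 34.4 to 152 (median 72) in CD8 T cells, and was higher in 7 of 7 libraries (1.35, SE 0.26, edgeR adjusted p = 0.0129). Icos, encoded on the same chromosome (60977927 to 61000320), was at 142 to 501 against 97.8 to 207 CPM (0.94, SE 0.18, edgeR adjusted p = 0.0129). Cd5, which dampens receptor signals, was at 43.3 to 212 against 24.3 to 75.3 CPM (1.22, SE 0.21, edgeR adjusted p = 0.00873). Tnfrsf18 was higher in 6 of 7 libraries by 0.87 (SE 0.19, edgeR adjusted p = 0.0271). Ctla4, Icos and Tnfrsf18 are also high in regulatory T cells, whose Foxp3 may go unread at these depths: 33 cells of all libraries met the rule with a Foxp3 UMI, at most 10 in a library, too few to be compared. Of the 4 regulatory T cell markers tested, 2 rose (Ctla4 and Tnfrsf18) and all 4 were above 0, with a median of 0.90. Cd40lg was too low to be tested, but stood at 21.5 to 81.2 CPM in CD4 T cells and 0 to 7.40 in CD8 T cells, higher in 7 of 7 libraries and without overlap.

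Other genes that rose had various roles. Hif1a, the oxygen-regulated transcription factor, was at 121 to 422 CPM against 67.7 to 104 in CD8 T cells without overlap (1.1, SE 0.18, edgeR adjusted p = 0.00663). Nfkbiz, a regulator of NF-κB targets, rose by 1.27, Rel, an NF-κB subunit, by 1.01, Traf1, an adaptor of TNF receptors, by 0.97 and Pim1, a kinase induced by cytokines, by 0.92. Ramp3, a partner protein of the calcitonin-like receptor, was at 75.9 to 228 CPM against 10 to 79.6 (1.38, SE 0.28, edgeR adjusted p = 0.0189). Rora, a nuclear receptor of Th17 and innate lymphoid cells, rose by 0.87 as 1 of 3 genes tested from the Th17 list. Dusp10, a phosphatase of stress kinases, Tspan13, a tetraspanin, and Gm2a, a lysosomal activator protein, rose by 1.11, 0.97 and 1.0, and Epsti1, an interferon-induced gene, fell by 0.86. Without the cells of 30 or more MHC class II UMIs in the same libraries Gm2a was at 0.54 (edgeR adjusted p = 0.152) and not called. Over all alternatives the call of Gm2a was lost in 8 of 15, that of Ramp3 in 8 of 14 and that of Rel in 4 of 15.

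MHC class II genes rose too. Cd74, the invariant chain, was at 1178 to 12710 CPM (median 3527) against 1313 to 4516 (median 2339) and higher in 6 of 7 libraries (1.0, SE 0.23, edgeR adjusted p = 0.0365), with H2-Ab1 at 0.93 and H2-Eb1 at 0.95. Of the Cd74 UMIs, 4107 of 4135 in iWAT WT-Veh replicate 2 and 1298 of 1327 in eWAT ob/ob-Veh replicate 2 came from cells with 30 or more MHC class II UMIs. Without those cells, which were picked by their UMIs of Cd74 and 2 other genes and so had to lower it, Cd74 was at −0.134 in the same libraries, and its call was also lost in 7 of 16 alternatives. All 8 macrophage markers tested were above 0 and none was called, with a median of 0.28.

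Of the 10 naive genes tested none was called, 4 were above 0 and the median was −0.07. Ccr7 was at 28.9 to 515 CPM (median 75.9) in CD4 T cells and 103 to 438 (median 244) in CD8 T cells, lower in 6 of 7 libraries but not called (−0.92, edgeR adjusted p = 0.173). All 80 ribosomal protein genes tested were below 0, with a median of −0.25 against 0.0049 for all genes, and none was called.

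When each library was left out in turn, the number of genes called ran from 11 without eWAT WT-Veh replicate 2 to 69 without iWAT WT-Veh replicate 1, against 39. With the library size in place of TMM scaling, 38 genes were higher and 9 lower.

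**Figure D4:**
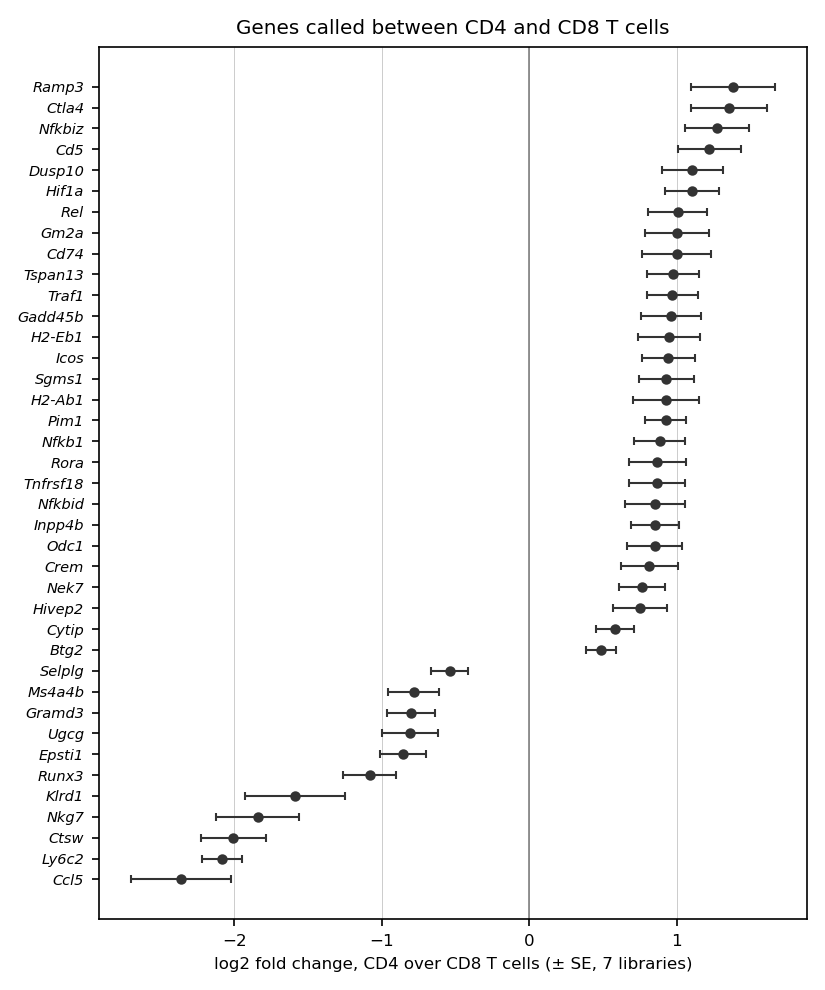
Log2 fold change of CD4 T cells over CD8 T cells with its standard error for the 39 genes called, compared within 7 libraries. Ccl5 and Ly6c2 have the largest changes among the genes that fell (−2.36 and −2.08), and Ramp3 and Ctla4 have the largest changes among those that rose (1.38 and 1.35).

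Differences between the labelled groups were tested on UMI counts summed per library. Only 7 libraries held 20 or more CD4 T cells, which left 2 comparisons as designed, ob/ob-Veh against WT-Veh in eWAT (WT-Veh by replicate 2 alone) and ob/ob-Rosi against WT-Veh in iWAT. With so few cells and libraries, a gene that was not called is not shown to be unchanged. The other comparisons were made over the 11 libraries with 5 or more cells, in which iWAT ob/ob-Veh is 1 library of 8 cells. Libraries of the same replicate number shared a feature: Gm42418, a gene model that overlaps ribosomal RNA, took 4.01% to 9.06% of CD4 T cell UMIs in the 6 libraries numbered 1 and 0.067% to 0.33% in 5 of those numbered 2, with 3.28% in iWAT ob/ob-Veh replicate 2. Counts from a fit with the number as a block are therefore given beside the others, and the part of Gm42418 in any result was not tested. The comparisons of ob/ob-Veh with WT-Veh and of ob/ob-Rosi with ob/ob-Veh share the ob/ob-Veh libraries.

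In eWAT, Retnla was the only gene of 3510 that passed between ob/ob-Veh and WT-Veh, so 0.0285% were called. Retnla (chromosome 16, 48842551 to 48844461, GRCm38, plus strand) encodes RELMα, a secreted protein known from alternatively activated macrophages. Its level in CD4 T cells was 265 and 30.3 CPM in eWAT WT-Veh, 6903 and 10002 in eWAT ob/ob-Veh and 105 and 23.2 in eWAT ob/ob-Rosi. The summed UMIs of the ob/ob-Veh libraries exceeded those of WT-Veh replicate 2, as CPM, 276-fold (counting interval 107 to 1012) and those of both WT-Veh libraries 120-fold (67.1 to 241), and the fitted log2 fold change was 7.98 (SE 1.18, edgeR adjusted p = 0.0459). Over 17 alternatives it lay between 5.64 and 8.15. The call was lost when Scrublet calls were removed (edgeR adjusted p = 0.0746) and when eWAT libraries were fitted alone (0.171). DESeq2 called 4 genes higher and none lower, and a fit with the replicate number as a block 14 higher and 5 lower, Retnla among them.

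Retnla in these cells followed Retnla around them in eWAT, where both were highest in ob/ob-Veh, but not between depots. In the cells without a CD3 UMI it was at 515 and 177 CPM in eWAT WT-Veh, 4621 and 4216 in ob/ob-Veh and 628 and 109 in ob/ob-Rosi, and in iWAT at 4999 and 5591, 4550 and 3655, and 2041 and 3599. The iWAT CD4 T cells were at 572 to 1929 CPM in the libraries with more than 1 cell, below the 6903 and 10002 of eWAT ob/ob-Veh, although Retnla around them reached as high. It was in 97.1% and 97.4% of eWAT ob/ob-Veh macrophages, against 32.4% and 23.8% in eWAT WT-Veh and 43.8% and 13.3% in eWAT ob/ob-Rosi. In CD8 T cells it was at 161 and 25.1, 3172 and 694, and 274 and 10.7 CPM in eWAT. Most UMIs were in few cells, with 882 of 957 and 1170 of 1232 in the cells of 30 or more MHC class II UMIs of the eWAT ob/ob-Veh libraries. Of the remaining cells 88.9% and 86.7% still held a Retnla UMI there, at median depths of 2555 and 3353 UMIs, against 13.3% and 4.5% in eWAT WT-Veh at 1213 and 2046. Without the former cells, in the same 7 libraries and with 15 cells left in eWAT ob/ob-Veh replicate 2, the log2 fold change was 5.84 (edgeR adjusted p = 0.0419). How far Retnla was transcribed in the T cells was not tested.

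**Figure D5:**
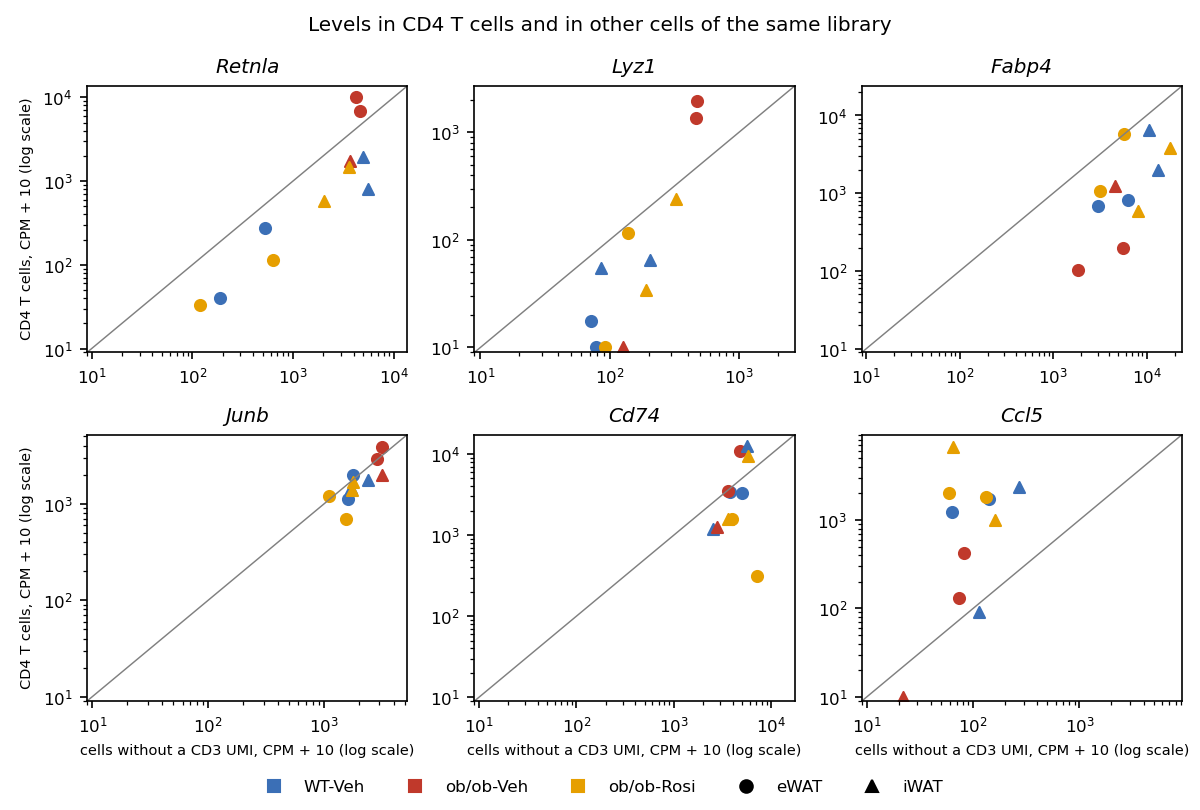
Level of Retnla, Lyz1, Fabp4, Junb, Cd74 and Ccl5 in CD4 T cells (vertical) against the cells without a CD3 UMI of the same library (horizontal), both as CPM + 10 on log axes, 1 point for each of 11 libraries, with the line of equal levels. In eWAT, Retnla lies below the line in the WT-Veh and ob/ob-Rosi libraries and above it in ob/ob-Veh, at 6903 and 10002 CPM. Ccl5 lies above the line in most libraries.

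No other gene passed, and the next by p were also genes of myeloid cells. Lyz1, a lysozyme, had 1 UMI in eWAT WT-Veh replicate 2 and 272 and 165 in ob/ob-Veh (edgeR adjusted p = 0.155), of which 226 and 121 came from 1 cell each. Lilr4b, a leukocyte inhibitory receptor, had no UMI in WT-Veh replicate 2, where 3 UMIs are worth 22.8 CPM, and 23 and 24 in ob/ob-Veh, at least 7.89-fold more as CPM (edgeR adjusted p = 0.155). The lowest p among lower values were those of Trem2, Fabp5 and Apoe, genes of lipid-associated macrophages (edgeR adjusted p of 0.217, 0.346 and 0.362), with Apoe at 2139 CPM in WT-Veh replicate 2 and 454 and 227 in ob/ob-Veh. Without adjustment, 190 higher and 117 lower genes had a p under 0.05.

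Of the T cell lists, none had a called gene. Immediate early and dissociation genes, which cells raise within minutes of stress, had 20 of 22 members above 0 and a median of 1.26, where all genes had 50% above 0 and a median of 0.0003. Junb was at 1967 and 1100 CPM in eWAT WT-Veh, 3838 and 2874 in eWAT ob/ob-Veh and 683 and 1185 in eWAT ob/ob-Rosi, while the cells without CD3 went from 1753 and 1610 to 3141 and 2832 and to 1525 and 1088. Zfp36, which destabilises cytokine transcripts, was at 151 and 114, 1363 and 1072, and 263 and 69.7 CPM (3.32, SE 0.70, edgeR adjusted p = 0.217). Ribosomal protein genes had 3 of 80 above 0 and a median of −0.86, and made up 27.1% and 30.1% of CD4 T cell UMIs in eWAT WT-Veh, 16.8% and 19.1% in eWAT ob/ob-Veh and 18.1% and 27.1% in eWAT ob/ob-Rosi. Th2 genes had 4 of 5 above 0 with a median of 3.63, in a list where WT-Veh replicate 2 held 0 UMIs of Il1rl1 and Il5. Th1 and cytotoxic genes had 3 of 11 above 0 with a median of −0.96, and receptor genes 2 of 15 with a median of −0.98. Ccl5 (−2.74, edgeR adjusted p = 0.582), Nkg7 (−2.82) and Gata3 (2.01, edgeR adjusted p = 0.546) were not called.

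Between ob/ob-Rosi and ob/ob-Veh in eWAT, 9 genes rose and 9 fell of 5100, 0.353% in all and 0.176% in each direction, with a median of −0.27 over all genes. The ob/ob-Rosi libraries held 12 and 16 CD4 T cells, and without replicate 2 no gene was called. Without other libraries 8 to 65 were, the fewest without eWAT WT-Veh replicate 1 or 2. With the library size in place of TMM scaling, 14 were higher and 9 lower and the median was 0.0041. DESeq2 called 5 higher and 22 lower. With the replicate number as a block 22 were higher and 53 lower, with all 18 among them. Without the cells of 30 or more MHC class II UMIs 11 were higher and 4 lower, 6 of them among the 18.

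The genes that fell included those of myeloid and antigen-presenting cells. Retnla went from 6903 and 10002 CPM to 2 and 1 UMIs, 173-fold lower over the group (counting interval 59.1 to 839, edgeR adjusted p = 4.51e-05). Lyz1 went from 1962 and 1340 CPM to 105 and 0 (edgeR adjusted p = 0.00314), and H2-Aa, an MHC class II chain, from 1710 and 5431 to 420 and 256 CPM (−3.77, edgeR adjusted p = 0.0441). The H2-Aa UMIs of ob/ob-Veh lay in cells of 30 or more MHC class II UMIs for 219 of 237 and 647 of 669, and its call was lost in 9 of 20 alternatives, at −0.105 without those cells, which its UMIs helped to pick. Without them, and ob/ob-Rosi had none, Lyz1 was at −2.15 (edgeR adjusted p = 0.547) and was not called. Tnip3, an inhibitor of NF-κB signalling, had 22 and 69 UMIs in ob/ob-Veh, all in those same cells, and none in ob/ob-Rosi. Kdm6b, a histone demethylase, went from 490 and 1007 to 52.5 and 116 CPM (−3.24, edgeR adjusted p = 0.0226), with 45 of 68 and 94 of 124 UMIs in those cells. Without them Kdm6b was at −2.24 (edgeR adjusted p = 0.16), and its call was lost in 8 of 20 alternatives in all.

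Zfp36 was the only immediate early gene called, lower by 3.45 on the log2 scale (SE 0.63, edgeR adjusted p = 0.00576). Of its UMIs in ob/ob-Veh, 158 of 189 and 100 of 132 were in the cells of 30 or more MHC class II UMIs. Of that list 1 of 22 was above 0 and the median was −1.48, beside 39.9% above 0 and −0.27 over all genes, and Junb stood at −2.10 (edgeR adjusted p = 0.092). Nfkbiz, chosen here after its values were seen, went from 469 and 1137 to 52.5 and 69.7 CPM (−3.89, SE 0.75, edgeR adjusted p = 0.0093), with 48 of 65 and 104 of 140 of its ob/ob-Veh UMIs in those cells.

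None of the 9 genes that rose had a higher mean level in CD4 T cells than in the cells without CD3. Among 7 endothelial markers 2 rose, and these lay almost wholly in 1 cell: Gpihbp1, which anchors lipoprotein lipase in capillaries, had 43 UMIs in ob/ob-Rosi replicate 2, 41 of them in 1 cell, and none in replicate 1 or ob/ob-Veh. Cldn5, a tight junction protein, had 28 UMIs there, 26 of them in 1 cell. The endothelial markers summed to 2487 CPM in that library, against 41 to 189 in the other 5 of eWAT.

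Of the 13 tested genes of the PPAR and fat metabolism list, 2 rose. Fabp4, a fatty acid binding protein and PPARγ target, was at 681 and 812 CPM in eWAT WT-Veh, 93.8 and 187 in eWAT ob/ob-Veh and 1051 and 5694 in eWAT ob/ob-Rosi (4.41, SE 0.85, edgeR adjusted p = 0.0093), with 225 of the 245 UMIs of ob/ob-Rosi replicate 2 in 1 cell. Its relative Fabp5 was at 303 and 250, 14.4 and 8.12, and 473 and 418 CPM (4.84, SE 0.88, edgeR adjusted p = 0.00576), and was found in 9 of 16 and 6 of 12 ob/ob-Rosi cells, against 2 of 33 and 1 of 22 in ob/ob-Veh. Macrophages held Fabp5 in 67.6% and 83.5% of cells in eWAT ob/ob-Rosi and 13.9% and 18.2% in eWAT ob/ob-Veh. The list as a whole had 7 of 13 above 0 and a median of 0.012. Trem2, a receptor of lipid-associated macrophages, rose from 1 UMI in all to 6 and 8.

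Pparg, whose protein Rosi binds, had 16 and 11 UMIs in CD4 T cells of iWAT WT-Veh. It was nearly unread in the other groups given here. The UMIs were 0 and 1 in eWAT WT-Veh, 1 and 0 in eWAT ob/ob-Veh, 0 and 1 in eWAT ob/ob-Rosi and 0 and 1 in iWAT ob/ob-Rosi. Ppara was not read at all, and Lepr, the leptin receptor, gave 1 UMI, in iWAT ob/ob-Rosi replicate 1. At this depth a low level of Ppara or Lepr, or of Pparg outside iWAT WT-Veh, could go unread.

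Effector genes were not called between eWAT ob/ob-Rosi and ob/ob-Veh: Ccl5 stood at 2.45 (edgeR adjusted p = 0.305) and Nkg7 at 2.55. Th1 and cytotoxic genes had 10 of 15 above 0 and a median of 0.95, Th2 genes 0 of 6 and a median of −2.05, and naive genes 2 of 14 and a median of −0.88, with none called. Against WT-Veh, no gene of 5100 passed in eWAT ob/ob-Rosi (0% called, smallest edgeR adjusted p = 0.269, 106 higher and 117 lower with an unadjusted p below 0.05, none by DESeq2, 2 higher with the replicate block), and Th1 and cytotoxic genes had 7 of 15 above 0 and a median of −0.0092.

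In iWAT, ob/ob-Rosi and WT-Veh had 2 libraries of 39 cells or more each, and no gene of 3510 was called (0% by edgeR, smallest adjusted p = 0.855, 29 higher and 46 lower with an unadjusted p below 0.05, none by DESeq2). The naive list had 0 of 13 above 0 and a median of −0.91, with Satb1 at −2.81 and Ccr7 at −1.65, while 48.7% of all genes were above 0. The activated list had 18 of 19 above 0 and a median of 0.65, and the Th1 and cytotoxic list 10 of 11 and 0.77. As the levels above show, Satb1 in WT-Veh was 1356 CPM in replicate 1 and 114 in replicate 2, with 139 and 66.4 in ob/ob-Rosi, so the naive values rest on replicate 1, the library that stood apart. Without it the naive list had 6 of 10 above 0 and a median of 0.090, where 51.3% of the 3216 genes tested were above 0. The activated list then had 16 of 19 and 0.48, and the Th1 and cytotoxic list 9 of 11 and 0.53. The smallest p belonged to Serpinb1a, a protease inhibitor, at 13.5 and 12.3 CPM in WT-Veh and 172 and 114 in ob/ob-Rosi (3.43, edgeR adjusted p = 0.855).

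The comparisons with iWAT ob/ob-Veh rest on 8 cells and 9709 UMIs. No gene of 5100 was called for ob/ob-Veh against WT-Veh (0%, smallest edgeR adjusted p = 0.346, 11 higher and 466 lower with an unadjusted p below 0.05) or for ob/ob-Rosi against ob/ob-Veh (0%, smallest edgeR adjusted p = 0.156, 507 higher and 26 lower). The medians of all genes were −1.0 and 0.97, so that most genes lay on 1 side, whereas with the library size in place of TMM scaling they were 0.17 and −0.21. DESeq2 called 126 lower genes in the first and 145 higher in the second, and with the replicate number as a block 4 were higher and 89 lower in the first and 161 higher and 5 lower in the second. Ribosomal protein genes made up 16.8% and 28.5%, 12.1%, and 25% and 32.5% of the UMIs of WT-Veh, ob/ob-Veh replicate 2 and ob/ob-Rosi. The cells of that library carried 11.4% mitochondrial UMIs, against 2.2% to 10.5% in the other 10 libraries with 5 or more cells.

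Between depots, over the means of the 3 groups, no gene of 5100 was called (0%, smallest edgeR adjusted p = 0.295, 137 higher and 220 lower in iWAT with an unadjusted p below 0.05, none by DESeq2, 5 higher and 10 lower with the replicate block). Retnla, low in eWAT WT-Veh at 265 and 30.3 CPM, was at 1929 and 787 CPM in iWAT WT-Veh, 1751 in iWAT ob/ob-Veh replicate 2 and 572 and 1443 in iWAT ob/ob-Rosi. Fabp4 was at 6587 and 1986 CPM in iWAT WT-Veh and 3792 and 579 in iWAT ob/ob-Rosi, where the other cells also held more of it than in eWAT ob/ob-Veh.

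Whether the ob/ob and Rosi differences themselves differed between depots was also tested, with iWAT ob/ob-Veh again resting on 8 cells. For ob/ob-Veh against WT-Veh 1 gene of 5100 passed, Retnla, lower in iWAT than in eWAT (0.0196% called, all of it lower). For ob/ob-Rosi against ob/ob-Veh 2 passed, Retnla and Nfkbiz, higher in iWAT (0.0392% called, all of it higher). With the replicate block these were 3 higher and 31 lower in the first and 179 higher and 3 lower in the second. The levels of Retnla behind this are those given above, high in both eWAT ob/ob-Veh libraries and low in the other 4 of eWAT, and between 572 and 1929 CPM in the iWAT libraries with 5 or more cells.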

How the data were processed

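The SVF of 12 adipose samples was sequenced on 10x Genomics 3-prime v3.1 libraries. The authors demultiplexed with bcl2fastq 2.19.1.403, aligned to mm10 and counted UMIs per gene and barcode with Cell Ranger 3.0.2, per the submitters' processing notes in the labels, and deposited raw counts per library, 1 matrix each. Neither doublet removal nor a correction for free RNA is named in these sources. As deposited, iWAT barcodes already lay within the upper limits, at up to 21957 UMIs and a mitochondrial share of up to 24.98%. Those of eWAT reached 149572 UMIs and 98.3%. The study's limits on UMIs, genes and mitochondrial share were applied again to both depots. The members, gene lists, tests and alternatives were chosen with earlier results of these data known.

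UMI counts were summed over the CD4 T cells of a library, since libraries and not cells are replicates, and tested with edgeR 4.0.16 in R 4.3.3 (TMM, filterByExpr, quasi-likelihood test, Benjamini-Hochberg adjustment over all genes tested, no replicate block). Calls needed both a change of 1.1-fold or more and an adjusted p of at most 0.05. Genes of the rule were not tested. The design asked for 20 or more cells per library, which left 7 libraries and 3 residual degrees of freedom, and 2 of the 9 comparisons of groups and depots. The others used 5 or more cells (11 libraries, 5 residual degrees of freedom). The library was a block in the comparison with CD8 T cells. Shares were compared with exact permutation tests within strata, 8 in all, since the naive share of ob/ob-Rosi against ob/ob-Veh could not be tested. A comparison with regulatory T cells could not be made. The code was tested on simulated counts, with 100 genes changed 2-fold and 100 changed 4-fold. For ob/ob-Rosi against WT-Veh in iWAT 1 and 14 of them were called, and for ob/ob-Veh against WT-Veh in eWAT none. For CD4 against CD8 T cells 98 and 100 were called, with 10 unchanged genes. Alternatives were DESeq2 1.42.0, library size alone, no filter on low counts, cells thinned to 700 UMIs, 2 or more CD3 UMIs, Scrublet calls removed (scanpy 1.11.5 in Python 3.11.15), cells with 30 or more MHC class II UMIs removed, a replicate block, other minimum numbers of cells, the libraries of a depot alone and each library left out. Doublets were kept otherwise. Deviations from the group means of same-numbered libraries correlated at 0.102, 0.149 and 0.410 over 3510 genes in the 3 pairs of groups that could be checked. The main fits have no replicate block, so their fold changes and p-values leave out any pairing by number. Counts with the block are given beside the others. The labels do not say what the number marks.

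Genes named are, in each comparison, the 10 of largest change among those called in a direction whose mean CPM in CD4 T cells was at least that in the other kept cells of the same libraries, or the 3 of smallest p where fewer than 3 were called in that direction, and members of the lists. Some genes that this rule names are not reported here, and the naive marker share, the Th17 share and the plots were made without them. Positions are those of GENCODE vM21 on GRCm38. Nothing in the labels says more than that libraries are biological replicates, so p-values measure the spread between these libraries. In the gene tests a group with a lone library shows no spread of its own and was taken to vary as the others do. This holds for eWAT WT-Veh in its comparison with eWAT ob/ob-Veh, and for iWAT ob/ob-Veh in every gene test that used it.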

Additional observations from a re-analysis of the deposited data

Results flagged for a closer look

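The difference between depots in the ob/ob comparison passed for Retnla, at −7.34 on the log2 scale for iWAT minus eWAT (edgeR adjusted p = 0.0215), where all genes had a median of −1.58. The same test of the Rosi comparison passed for Retnla at 8.21 (edgeR adjusted p = 0.0115) and for Nfkbiz at 12.35 (edgeR adjusted p = 0.0188), where all genes had a median of 2.06. All 3 rest on the 8 CD4 T cells of iWAT ob/ob-Veh replicate 2. Nfkbiz had no UMI in those cells, so its fitted value depends on the prior count and is no measure of size. It had 65 and 140 UMIs in eWAT ob/ob-Veh, 1 and 3 in eWAT ob/ob-Rosi and 27 and 40 in iWAT ob/ob-Rosi. Over 18 alternatives the calls were lost in 6 for Retnla in the ob/ob comparison, in 6 for Retnla in the Rosi comparison and in 9 for Nfkbiz.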

How the results depend on the processing

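The numbers of genes called moved with most settings, and the share tests passed in none. Ob/ob-Veh against WT-Veh in eWAT gave 1 call, and 4 by DESeq2, 25 without the filter on low counts, 9 after thinning, 3 with 2 or more CD3 UMIs, 3 without cells of 30 or more MHC class II UMIs, 10 with 5 or more cells per library, and 0 without Scrublet calls or with eWAT alone. Ob/ob-Rosi against WT-Veh in iWAT gave 0, and 7, 1 and 3 without the filter, after thinning and without the MHC class II cells. Ob/ob-Rosi against ob/ob-Veh in eWAT gave 18, and 65 without the filter, 7 after thinning, 29 without Scrublet calls and 30 with eWAT alone. Ob/ob-Rosi against WT-Veh in eWAT gave 0, and 2 without the filter. In iWAT, ob/ob-Veh against WT-Veh gave 0, with 126 by DESeq2 and 18 without the filter. The Rosi comparison in iWAT gave 0, with 145 by DESeq2 and 43 without the filter. The depots themselves gave 0, and 5 without the filter and 2 without the MHC class II cells. The depot difference of the ob/ob comparison gave 1, and 11 by DESeq2, 11 without the filter, and 0 with library size alone, 2 or more CD3 UMIs or no MHC class II cells. That of the Rosi comparison gave 2, and 152 by DESeq2, 28 without the filter, 1 without Scrublet calls, and 0 with library size alone, thinning, 2 or more CD3 UMIs or no MHC class II cells. CD4 against CD8 T cells gave 39, and 180 without the filter, 15 after thinning and 2 without the library block, and without the MHC class II cells Cd74, itself one of the genes they were removed by, turned to −0.142, or −0.134 in the same libraries. Removing these cells, or asking for 2 or more CD3 UMIs, also dropped eWAT ob/ob-Veh replicate 2 from the first, second and last comparison. With it kept, 3, 0 and 53 genes were called without the MHC class II cells. The cause was not tested. Settings without a filter test more genes and thinning fewer.

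With each library left out in turn, the calls ranged from 1 to 8, 0 to 1, 0 to 65, 0 to 2, 0 to 22, 0 to 46, 0 to 5, 0 to 8, 0 to 16 and 11 to 69 in the order above (a lone library was taken to vary as the rest do). The highest came without iWAT WT-Veh replicate 1 or 2 in all but the 0 to 2, which 7 libraries gave. The 0 of the third came without eWAT ob/ob-Rosi replicate 2, the 0 of the depot differences without either eWAT ob/ob-Rosi library or, for ob/ob, eWAT WT-Veh replicate 2, and the 11 without eWAT WT-Veh replicate 2. The naive share of iWAT less eWAT ranged from −0.861 to 31.1 points. For ob/ob-Rosi less ob/ob-Veh, the share of kept cells ranged from −0.00927 to 0.122 and that of cells with a CD3 UMI from −0.668 to 2.78. The lowest of the first was without iWAT WT-Veh replicate 1 and of the others without iWAT ob/ob-Rosi replicate 1.

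With a replicate block the calls were 19, 0, 75, 2, 93, 166, 15, 34 and 182 in the same order before CD4 against CD8. It ended no call of a gene named.

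A minimum of 50 cells per library gave no comparison of groups. The number of cells limits all of these results, and the genes named kept their direction and side of the threshold in 330 of 451 values, lost the call in 119 and reversed in 2.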
